A study of Homo sapiens with 4 samples.

Results

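The 9 genes described here encode enzymes that make, recycle or break down deoxynucleotides, the building blocks of DNA: RRM1, RRM2, TYMS, DUT, DTYMK, TK1, TK2, DCK and SAMHD1. They were chosen by gene symbol, and all 9 were found among the 19749 genes of the authors' deposited table and among the 14812 that carry an adjusted p-value there. The cells were U87, an established human line derived from a glioblastoma, grown in serum-containing medium. They were given either the vehicle DMSO (2 libraries) or the small molecule YZ129 at 5 µM for 24 h (2 libraries), and poly(A)-selected RNA was sequenced. The series title places YZ129 among inhibitors of the pathway from the chaperone HSP90 through the phosphatase calcineurin to NFAT transcription factors. No genotype differed between the groups. The labels do not tell whether libraries of 1 group are from separate cultures, and p-values therefore measure only a spread between libraries that may be technical.

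The authors' deposited table is a single comparison of the groups, with the columns of a DESeq2 results table and no values per library, so whether the groups overlap for a gene cannot be shown. For each gene it gives a mean level (read counts divided by library size factors and averaged) and a log2 fold change together with the standard error (SE) of that change. The lowest mean levels are sums of steps from 8 libraries, 4 more than the samples described here, so the mean level is not that of the DMSO or YZ129 cells alone. The numerator is not stated in the table, and its name puts DMSO first. A positive change was read as higher with YZ129, because HSP90 is known to hold the heat shock factor HSF1 inactive, and 12 of 25 heat shock genes passed as positive and 0 as negative. Under the opposite reading every direction below turns around, while sizes and p-values stay. A gene was called where the authors' adjusted p was under 0.05. Bulk RNA cannot tell fewer expressing cells from less RNA per cell.

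Ribonucleotide reductase, a complex of the large subunit RRM1 and the small subunit RRM2, turns ribonucleotides into deoxynucleotides and is the entry step of the pathway. Thymidylate is then built by TYMS from dUMP, which DUT supplies by cleaving dUTP, and DTYMK phosphorylates the product. In parallel, TK1 in the cytosol, TK2 in mitochondria and DCK in the cytosol and nucleus salvage free deoxynucleosides, and SAMHD1 hydrolyses finished dNTPs. RRM2, TYMS and TK1 are textbook examples of genes expressed mainly around S phase, whereas TK2 serves mitochondrial DNA in dividing and resting cells alike. Factors of the E2F family and the CCAAT-binding factor NF-Y are known regulators of many S-phase genes.

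Short stretches of the promoters are shown because 7 of the 9 genes fell, and because the choice of genes did not use promoter sequence. RefSeq promoters (build GRCh38.p14, from 250 bases before to 50 bases from each start) were found for 9 of 9 genes, in 14 windows, since RRM2, DUT and TK1 have several starts. Each line is 30 bases on the gene's own strand, and capitals mark a CCAAT box (CCAAT, or ATTGG on the other strand) or an E2F match (TTTCCCGC, TTTGGCGC, TTTCGCGC or TTTGCCGC, on either strand).
RRM2 (chr2:10122604-10122633, + strand): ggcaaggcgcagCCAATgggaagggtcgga
RRM2 (chr2:10122634-10122663, + strand): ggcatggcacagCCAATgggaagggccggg
RRM2 (chr2:10122661-10122690, + strand): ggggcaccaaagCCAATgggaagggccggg
RRM1 (chr11:4094645-4094674, + strand): gcatgtccatatCCAATggggcccatggga
DTYMK (chr2:241686890-241686919, - strand): ccccggccccggCCAATcccttcgaatttg
DTYMK (chr2:241686822-241686851, - strand): tgttgacgccggCCAATgggagctccggaa
TK1 (chr17:78187112-78187141, - strand): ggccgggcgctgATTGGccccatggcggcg
TK1 (chr17:78187081-78187110, - strand): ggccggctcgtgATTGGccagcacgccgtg
SAMHD1 (chr20:36951735-36951764, - strand): caggaggCCAATaggctgCCAATactcctt
DUT (chr15:48332152-48332181, + strand): ctgGCGGGAAAtttcggtTTTGGCGCgctc
TYMS (chr18:657603-657632, + strand): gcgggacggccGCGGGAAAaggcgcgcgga
DCK (chr4:70993659-70993688, + strand): gctgcctccgcGCGCCAAAgtcaaaccccg

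A CCAAT box lay in at least 1 window of 5 genes (RRM1, RRM2, DTYMK, TK1 and SAMHD1), against 39.7% of all 27305 RefSeq symbols with a promoter. An E2F match lay in 3 genes (DUT, TYMS and DCK), against 3.99% of all symbols. RRM2 carried 3 CCAAT boxes, beginning 123, 93 and 66 bases before the start that they precede, and 1 more began 249 bases before its other start. TK1 carried a pair, at 77 and 46 bases before its start, and SAMHD1 a pair at 49 and 38. The 2 E2F matches of DUT began 42 and 27 bases before 1 of its 4 starts, and that of TYMS 39 bases before its start. The DCK match began 21 bases after the start. TK2 had neither motif. All 7 genes that fell held a CCAAT box or an E2F match in at least 1 window, and so did 41.9% of all symbols. The motifs were planned singly and these 2 were joined with the calls known, so this joint count is a description only. DCK, which did not pass, held an E2F match as well. Neither motif was shared by all 7, since 5 held a CCAAT box and 2 an E2F match. A CHR element (TTTGAA on either strand) lay in 2 of 9 genes, against 18.2% of symbols. A GC box (GGGCGG on either strand) lay in 6 of 9, against 48.3%. An NFAT core (GGAAA on either strand, which also lies inside the E2F letters GCGGGAAA) was present in 6 of 9 genes and in 65.9% of symbols. These matches are descriptions of letters, not of bound sites, and members with several windows had more chances to match.

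Most enzymes of the pathway were moderately lower with YZ129 and none was called higher. Of the 9 genes 7 fell in the authors' deposited table, 0 rose and 2 did not pass, where 7.64% of all tested genes were called lower and 5.24% higher. Among the 4640 tested genes whose mean level lay within the range of the 9 enzymes, 10.2% were called lower and 3.25% higher. The median log2 change of the 9 was -0.49, from -0.69 (DUT) to -0.09 (TK2), and all 9 were below 0, although TK2 stood at 0.02 relative to tested genes of like level. The median over all tested genes was -0.05, and over those of like level it was -0.12. None of the 9 changed by as much as 1 on the log2 scale, a size that 1.17% of tested genes reached as calls on the lower side.

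**Figure D1:**
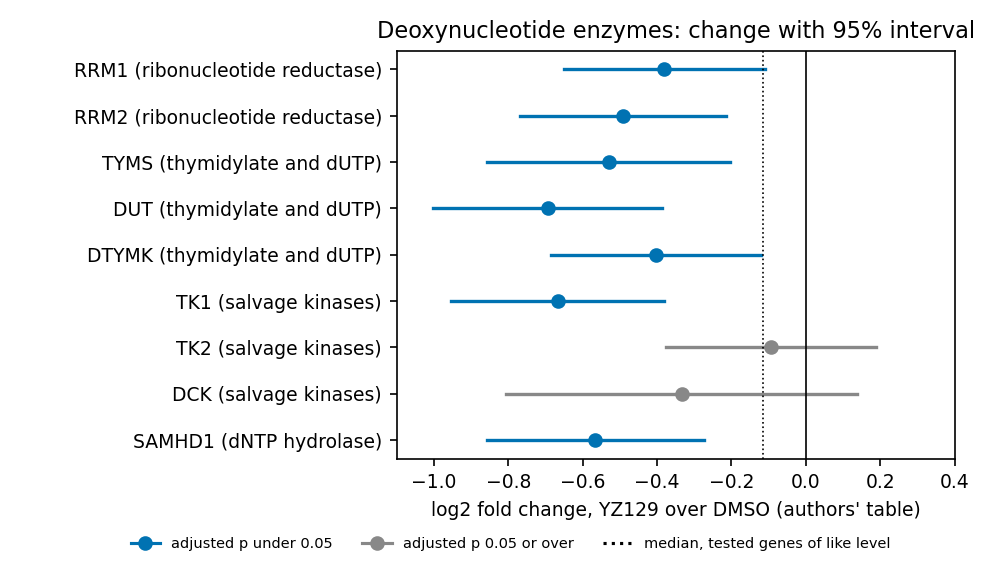
Log2 fold change of each enzyme (x axis, YZ129 over DMSO; points) with its 95% interval from the authors' SE (lines), 1 gene per row with its role. Blue marks an adjusted p under 0.05, grey the others, and the dotted line the median of -0.12 for tested genes of like level. TK1 and DUT lie farthest to the left, TK2 lies next to the dotted line, and the intervals of RRM1 and DTYMK end close to it.

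The size of the general shift matters for 4 of the 7 calls. When each change was taken relative to the median of tested genes in the same decile of mean level, the medians being -0.16 to -0.09 for the 9 enzymes, 3 of the 9 remained called (DUT, TK1 and SAMHD1), where 5.43% of tested genes were called lower. With this centring by deciles RRM1, RRM2, TYMS and DTYMK had adjusted p of 0.35, 0.11, 0.068 and 0.21 (Wald test recomputed from the authors' values). Centred on the 4640 genes of like level, the same 3 enzymes were called, against 4.53% of tested genes. Relative to the median of all tested genes, RRM1 and DTYMK were lost (adjusted p = 0.10 and 0.089) and 5.97% of tested genes were called lower. The same 2 were lost when the deposited p-values were adjusted over all 19749 genes, of which 5.18% were then called lower. At an adjusted p under 0.01 there were 4 calls among the 9 (RRM2, DUT, TK1 and SAMHD1), and 4.71% of tested genes were called lower. In the table as a whole, centring on the median of all tested genes turned a split of 776 higher and 1132 lower calls into 954 and 884, and centring by deciles gave 920 and 804.

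Both subunits of ribonucleotide reductase fell, by amounts that could not be told apart. RRM2, the small subunit whose abundance is known to limit the enzyme during S phase, had a mean level of 19966 normalized reads, 284th of all tested genes. Its log2 change in the authors' deposited table was -0.49 ± 0.14 (SE; adjusted p = 0.0069), which is 1.41-fold lower, with a 95% interval from 1.16-fold to 1.70-fold. RRM1, the large subunit that carries the active and allosteric sites, had a mean level of 12279. It was 1.30-fold lower in the authors' deposited table (-0.38 ± 0.14; adjusted p = 0.047), just inside the threshold, and its interval ran from 1.08-fold to 1.57-fold. The change of RRM2 minus that of RRM1 was -0.11, with a 95% interval from -0.50 to 0.28.

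RRM2B, the small subunit induced by p53 that serves resting cells and DNA repair, did not pass. The authors' deposited table gives it -0.06 ± 0.23 (adjusted p = 0.90) at a mean level of 5012. The difference between RRM2 and RRM2B was -0.43, but its interval from -0.95 to 0.09 includes 0. RefSeq lists C2orf48 as a synonym of RRM2, while the authors' deposited table counts it apart, at a mean level of only 11.6 and -1.22 ± 0.60 (adjusted p = 0.18). The GENCODE annotation (release 29) also names 3 pseudogene copies of RRM2, none of them in the table, so reads may be shared with them.

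All 3 enzymes of the thymidylate branch fell, led by DUT. DUT, the dUTPase that keeps uracil out of DNA and provides dUMP, had the lowest change of the 9 in the authors' deposited table, at -0.69 ± 0.16 (adjusted p = 0.00028), or 1.62-fold lower (95% interval 1.31 to 2.00). Only 3.81% of tested genes had a change as low. Its value sums all transcripts from its 4 starts, among them those of the nuclear and the mitochondrial form, and 8 annotated pseudogenes, none in the table, may share its reads. TYMS, which methylates dUMP to dTMP and is the target of fluoropyrimidine drugs, was 1.44-fold lower in the authors' deposited table (-0.53 ± 0.17; adjusted p = 0.017; 95% interval 1.15 to 1.81). DTYMK, the kinase that turns dTMP into dTDP, was 1.32-fold lower in the authors' deposited table (-0.40 ± 0.14; adjusted p = 0.042; 95% interval 1.09 to 1.61).

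The 3 changes did not differ among themselves beyond their errors. TYMS minus DUT was 0.16 (95% interval -0.28 to 0.61) and TYMS minus DTYMK -0.13 (-0.56 to 0.31). TYMS shares its locus with genes on the opposite strand, and the sources used here do not give whether the authors counted by strand. Of these, ENOSF1, which overlaps the far end of TYMS, had 0.16 ± 0.14 (adjusted p = 0.53) in the authors' deposited table. C18orf56 (now TYMSOS), at its start, had -0.26 ± 0.37 there (adjusted p = 0.71). The mean level of ENOSF1 was 1688 and that of TYMS 2737, so reads assigned across strands could bear on the TYMS value; this was not tested. GENCODE names 2 TYMS pseudogenes.

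Among the salvage kinases, cytosolic TK1 fell and mitochondrial TK2 did not pass. TK1, the thymidine kinase whose level is a clinical marker of proliferation, was 1.59-fold lower in the authors' deposited table (-0.67 ± 0.15; 95% interval 1.30 to 1.94). Its adjusted p of 0.00015 was the smallest among the 9 enzymes, and its mean level was 5719. TK2, which phosphorylates thymidine and deoxycytidine inside mitochondria, had -0.09 ± 0.14 in the authors' deposited table (adjusted p = 0.74), and 44.5% of tested genes had a change as low or lower. Its 95% interval ran from -0.38 to 0.19.

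TK1 minus TK2 was -0.57 (95% interval -0.98 to -0.17; adjusted p = 0.046 over 9 pairs), and it was the 1 pair of the 8 reported whose difference passed. That test treats the errors of the genes as independent. With errors correlated at 0.5 the adjusted p of the same Wald test was 0.00069. A correlation above 0 can only narrow the interval, so that setting could not have weakened the call. Correlations below 0 were not tried. DCK, which phosphorylates deoxycytidine and activates drugs such as cytarabine and gemcitabine, did not pass; the authors' deposited table gives it -0.33 ± 0.24 (adjusted p = 0.41). Its SE was larger than that of 96.8% of tested genes of like level, and the other 8 enzymes had SEs of 0.14 to 0.17. The DCK interval, from -0.81 to 0.14, covers the estimates of TK1 and TK2 alike. TK1 minus DCK was -0.33 (-0.89 to 0.22).

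DGUOK, the mitochondrial partner of TK2 that salvages purine deoxynucleosides, had -0.10 ± 0.16 in the authors' deposited table (adjusted p = 0.77). TK2 minus DGUOK was 0.002, with an interval from -0.42 to 0.42, so neither a shared nor a different response of these mitochondrial kinases was detectable within that width.

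SAMHD1, which degrades finished dNTPs, fell along with genes of the enzymes that make them. It was 1.48-fold lower in the authors' deposited table (-0.57 ± 0.15; adjusted p = 0.0026; 95% interval 1.21 to 1.81) at a mean level of 2053, the lowest of the 9. RRM2 minus SAMHD1 was 0.07 (-0.33 to 0.48), so the gene for the entry step and the gene for the breakdown step changed in the same direction by amounts that were not distinguishable. SAMHD1 is also known as a restriction factor of retroviruses in resting cells.

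**Figure D2:**
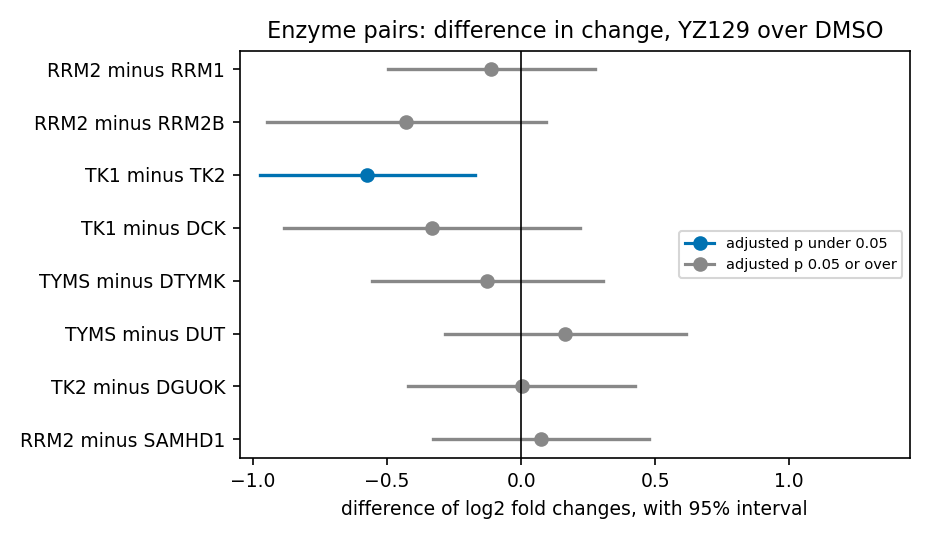
Difference between the log2 fold changes of 8 pairs of deoxynucleotide enzymes (x axis, first gene minus second; points) with 95% intervals (lines) that treat the errors as independent. TK1 minus TK2, in blue at -0.57, is the only interval that excludes 0 and passed after adjustment; the other 7, in grey, include 0.

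Per kilobase of exon, RRM2 was the most abundant of the 9 transcripts and SAMHD1 the least. With the exons of all protein-coding transcripts of GENCODE's basic set as length, RRM2 had 5174 normalized reads per kb, followed by RRM1 (3656), TK1 (3311), DTYMK (3163), TYMS (1647), DUT (1264), DCK (916), TK2 (366) and SAMHD1 (333). These are authors' means over 8 libraries and have no spread, so the order between neighbours is a description. With the median transcript length instead, RRM2 stayed first (5817) and SAMHD1 last (562), while the other 7 changed places.

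**Figure D3:**
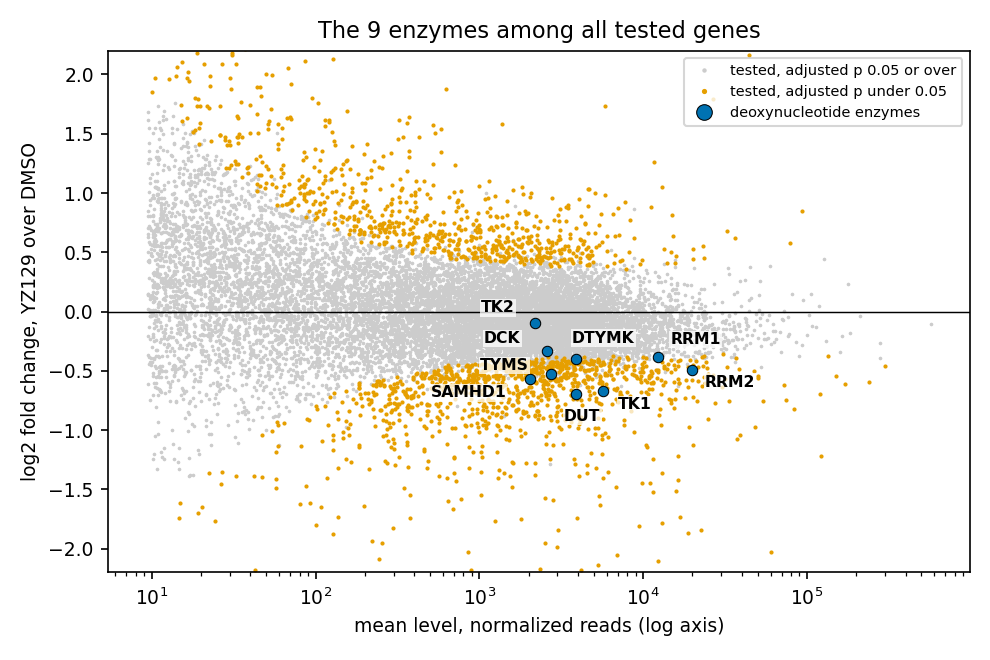
Log2 fold change (y axis) against the authors' mean level in normalized reads (x axis, log axis) for the tested genes, with 34 points beyond the plotted range; orange points have an adjusted p under 0.05. The 9 enzymes (blue circles) lie between mean levels of 2053 and 19966, inside the cloud and mostly in its lower part. TK2 and DCK lie among genes that were not called, and RRM1 and DTYMK at the boundary of the orange points.

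Of the other dNTP genes tested, the uracil glycosylase UNG had the lowest value. Of these 16 genes 2 fell, 0 rose and 14 did not pass, and the median change was -0.20. Over all tested genes 7.64% were called lower and 5.24% higher, so 2 of 16 is not far from that share. UNG, which cuts uracil out of DNA and so complements DUT, was 1.79-fold lower in the authors' deposited table (-0.84 ± 0.15, with an adjusted p of 4.6e-07), an estimate below that of each of the 9 enzymes, though the differences from them were not tested. The nucleoside transporter SLC29A1, through which salvage substrates enter the cell, fell as well (-0.56 ± 0.16; adjusted p = 0.0057 in the authors' deposited table). DCTD, which deaminates dCMP to dUMP, did not pass (0.04 ± 0.14; adjusted p = 0.91 in the authors' deposited table).

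The folate cycle, which feeds TYMS with its methyl donor, gave 4 falls and 1 rise among 13 tested genes, with a median of -0.22. The shares over all tested genes were 7.64% called lower and 5.24% higher. The serine hydroxymethyltransferase SHMT1 (-0.52 ± 0.16; adjusted p = 0.012) and the folate carrier SLC19A1 (-0.56 ± 0.17; adjusted p = 0.012) fell in the authors' deposited table, as did the mitochondrial folate enzyme MTHFD2 (-0.48 ± 0.16; adjusted p = 0.021). The 1 rise was FTCD, a histidine-degrading enzyme best known from liver (1.79 ± 0.54; adjusted p = 0.011 in the authors' deposited table), at a mean level of only 19.2. After centring by deciles of mean level this list had 2 calls, both lower, and centred on genes of like level it had 1, which was higher.

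Ribonucleotide synthesis, upstream of the reductase, gave calls among the purine genes. Of 18 tested purine genes 4 fell and 0 rose, with a median of -0.29, where 7.64% of all tested genes were called lower. In the authors' deposited table these were the mitochondrial adenylate kinase AK4 (-1.44 ± 0.15; adjusted p = 1.0e-20), the GMP synthetase GMPS (-0.65 ± 0.16; adjusted p = 0.00068), the de novo enzyme PAICS (-0.46 ± 0.14; adjusted p = 0.010) and the salvage enzyme HPRT1 (-0.56 ± 0.19; adjusted p = 0.031). Of 9 tested pyrimidine genes, from CAD to the CTP synthetases, 0 were called by the authors' DESeq2 adjusted p and 0 had an unadjusted p under 0.05, with changes from -0.27 to 0.12 and a median of -0.02. The purine list had 2 calls, both lower, at an adjusted p under 0.01 and after either centring by level. The difference between the purine and pyrimidine lists was not tested.

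**Figure D4:**
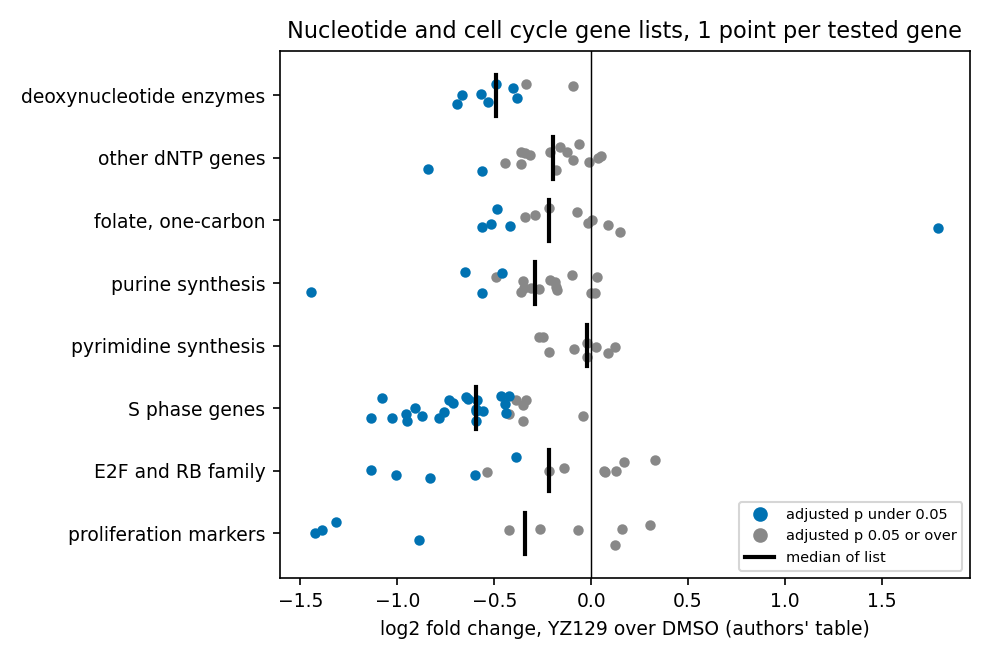
Log2 fold change (x axis) of every tested gene in 8 lists (rows), 1 point per gene, blue where the adjusted p was under 0.05; black bars are list medians and vertical scatter within a row has no meaning. The 9 enzymes (median -0.49) sit between the S-phase genes (-0.59) and the proliferation markers (-0.34). The folate, purine, other dNTP, and E2F and RB lists have medians from -0.29 to -0.20, and the pyrimidine list centres near 0.

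S-phase genes outside the 9 enzymes were also mostly lower, and lists from other parts of the cell cycle were so in part. Of 28 other S-phase genes 22 fell and 0 rose, with a median of -0.59 and all 28 below 0, PCNA among them (-0.91 ± 0.14 in the authors' deposited table; adjusted p = 1.8e-08). Centred by deciles or on genes of like level, 18 of the 28 were called, all lower. Beside the counts of this paragraph, 7.64% of all tested genes were called lower and 5.24% higher. Among 13 genes of the E2F and RB family 5 fell and 0 rose, including E2F8 (-1.14 ± 0.16), E2F2 (-1.01 ± 0.18) and E2F1 (-0.60 ± 0.14), a repressor and a pair of activators of S-phase genes, in the authors' deposited table, while 8 did not pass. RBL1 (-0.83 ± 0.18) and TFDP1 (-0.39 ± 0.13) were the other genes of this family that fell there. Of 10 proliferation markers 4 fell, 0 rose and 6 did not pass. The 4 that fell were TOP2A (-1.42 ± 0.15), CDK1 (-1.39 ± 0.20), UBE2C (-1.32 ± 0.17) and AURKB (-0.89 ± 0.16) in the authors' deposited table. The 3 above 0, named after their values were seen, were AURKA (0.30 ± 0.14), MKI67 (0.16 ± 0.14) and CCNB1 (0.12 ± 0.15) in the authors' deposited table, and centring by deciles or on genes of like level gave 1 higher and 4 lower calls in this list. The part of a shift in the cell cycle in the lower levels of the 9 enzymes was not tested. These lists were chosen with earlier results of these data known.

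Mean levels of marker genes describe the material but cannot test the label of the cells. They pool all 8 libraries, and the cells of the additional 4 are not known here. VIM and CD44, mesenchymal markers, were abundant (mean levels 298885 and 134994), whereas the astroglial marker GFAP was low (52.2) and S100B and SOX2 were near 0 (1.12 and 0.85) in the authors' deposited table. The leukocyte marker PTPRC (2.28) and the epithelial marker EPCAM (18.1) were near 0 or low there. Of 11 tested glioma and mesenchymal markers 6 fell and 0 rose: ID1, ID3, SLC1A3, NES, VIM (-0.46 ± 0.13) and CD44 (-0.38 ± 0.13) in the authors' deposited table. Beside these and the marker counts that follow, 7.64% of all tested genes were called lower and 5.24% higher. Of marker genes of other cell types, 1 of 3 tested blood cell genes rose (LCP1), 4 of 5 neuronal genes fell (TUBB3, SNAP25, ENO2 and GAP43) and 0 of 4 epithelial genes were called by the DESeq2 adjusted p or at an unadjusted p under 0.05. Levels per group are not in the values used here, and the part of any of these markers' cell types in the changes of the 9 enzymes was not tested.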

How the data were processed

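Poly(A) RNA of 2 DMSO and 2 YZ129 libraries of U87 cells was grouped by sample title. Cuffdiff, Cufflinks 2.2.1 and TopHat2 2.0.12 are named without their roles, as is hg19, per the submitters' processing notes; the sources used here do not give the read counter, the annotation or the DESeq2 version. Per the file headers, the authors deposited a mean level (a normalized signal), a log2 fold change with its SE, the Wald score, and the raw and adjusted p-value of each gene. The deposited score equalled the change divided by its SE, and the adjusted p-value a Benjamini-Hochberg adjustment over 14812 genes; the other 4937 genes, with mean levels up to 9.43, had none. Library steps were read from mean levels of genes with 2 or 3 reads (890 of 890 matched, tolerance 1e-07). Genes with 2 reads in a single library had changes of at most 0.55 in size, so the log2 changes had been moderated by the authors and understate the change of low genes. For some libraries these changes were 0.46 to 0.55 in size, and for the others they were near 0 (-0.002). Depth in reads is unknown here, and no interval on counts can be given.

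Intervals are the deposited log2 change ± 1.96 SE. Pair differences were tested with a two-sided Wald test on independent errors, adjusted over 9 pairs, of which 8 are reported; 1 gene and its pair are not reported here. Named were the 9 enzymes, RRM2B, DGUOK and DCTD, up to 4 called genes of each list with the smallest adjusted p, and overlapping genes. The members and lists were chosen with earlier results of these data known. The calculation of the centred calls and pair differences was tried on simulated data. Those had independent normal errors of the deposited SE, so the SEs themselves and the independence of genes were not checked. Python 3.11.15, pandas 2.3.3 and scipy 1.17.1 were used.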

Additional observations from a re-analysis of the deposited data

How the results depend on the processing

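The 9 enzymes stayed below 0 under every setting tried except TK2, which did not pass under any and stood at 0.02 relative to tested genes of like level and at 0.01 relative to its decile. Calls of enzymes went from 7 to 4 at an adjusted p under 0.01 (RRM1 -0.38, TYMS -0.53 and DTYMK -0.40 lost) and to 0 at a minimum log2 change of 1 (RRM2 -0.49, DUT -0.69, TK1 -0.67 and SAMHD1 -0.57 lost as well). With adjustment over every gene that has a p, RRM1 (-0.38) and DTYMK (-0.40) were lost. Centring on the median of all tested genes lost the same genes, at -0.33 and -0.35. Centring by deciles of mean level left 3, with RRM1 at -0.22, RRM2 at -0.34, TYMS at -0.44 and DTYMK at -0.29 lost. Centring on the genes of like level, a setting chosen after seeing the data, also left 3, with RRM1 at -0.26, RRM2 at -0.38, TYMS at -0.41 and DTYMK at -0.29 lost, and gave 1291 higher and 671 lower calls over all genes. Calls over all genes numbered 1144 at an adjusted p under 0.01 and 413 at a minimum log2 change of 1. At an adjusted p under 0.01 the folate list had 0 calls and the purine list 2. At a minimum log2 change of 1 the other dNTP genes had 0 calls, the folate list 1, the purine list 1, the S-phase genes 3 and the E2F and RB family 2. Centred by deciles the folate and purine lists had 2 calls each, all lower. Centred on genes of like level the folate list had 1, a rise, and the purine list 2, both lower. No pair difference changed its side of the threshold with errors correlated at 0.5, a setting that can only narrow the intervals. With windows of 250 bases before the start only, E2F matches remained in 2 genes, since the DCK match was outside. No paired analysis was possible because the table holds no values per library, and for that reason no library could be left out in turn. The sources used here do not give the number of libraries behind an SE, and all 8 libraries of the mean level may have entered it.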
